A study of Mus musculus with 8 samples.

Results

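Withdrawal of the F266A mutant of WDR5 from mouse embryonic stem cells (ESCs) was followed on 4 of the 8 arrays of the series: 2 arrays of cells kept in doxycycline (F266A +dox) and 2 of cells grown without it (F266A -dox). Each difference below is F266A -dox minus F266A +dox on the log2 scale unless another is named. All cells were V6.5 mouse ESCs infected with lentivirus, and every group, controls included, carried a constitutive short hairpin RNA (shRNA) against endogenous mouse *Wdr5* together with a transgene for human WDR5. The transgene was linked to GFP and driven by a doxycycline-inducible promoter, and infected cells were sorted for GFP. With doxycycline at 2 µg/mL the transgene is on, and without it the shRNA is left without rescue. Every group carried the transgene, so effects of the drug itself and of WDR5 loss cannot be told apart. The other 4 arrays hold the same design with wild-type (WT) human WDR5, as 2 WT +dox and 2 WT -dox arrays, and they share no array with the F266A withdrawal. The study describes 1 line per transgene, so what belongs to the transgene and what belongs to the line cannot be told apart. Total RNA was hybridised to Affymetrix mouse expression arrays, in duplicates that the study calls biologic. The p-values use 1 spread per gene, estimated from the duplicates of all 4 groups, WT included, and moderated across genes. Probe sets with exactly 1 gene symbol and a value over 50 on the linear scale (5.64 on the log2 scale) on at least 1 of the 8 arrays were averaged per gene, which gave 11940 genes, all of them tested.

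WDR5 is a WD-repeat protein that holds together the MLL and SET1 complexes, which methylate histone H3 at active promoters, and it also binds RNA. The F266A substitution lies in the surface used for RNA binding. ESCs grown with LIF keep a naive transcription factor network (*Nanog*, *Esrrb*, *Klf4*, *Tbx3*), and cells that leave this state pass through an epiblast-like stage marked by *Fgf5* and *Dnmt3b* before genes of the primitive streak or of the ectoderm come on.

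The targeted gene was read first. Endogenous *Wdr5* (chromosome 2, 2 probe sets) measured 8.59 and 8.56 on the F266A +dox arrays and 9.31 and 9.27 on the F266A -dox arrays. It rose by 0.71 ± 0.07 (SE, n = 2 per group, adjusted p = 0.000318), with no overlap between groups. Its 2 probe sets rose by 0.54 and 0.89. In the WT line *Wdr5* was 8.35 and 8.32 with doxycycline and 9.45 and 9.35 without it, a rise of 1.06 ± 0.07. The 2 rises were not called different (interaction -0.35 ± 0.09, adjusted p = 0.0694). The probe sets are designed for the mouse gene and none is named for the human transgene, so loss of transgene RNA was not measured here.

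F266A duplicates correlated at 0.997 (+dox) and 0.996 (-dox) across genes, against 0.986 to 0.989 between the groups, and the median SD between duplicates was 0.06 in each. The 18S ribosomal RNA control probe sets were lower in F266A -dox (9.57 to 10.27 over 3 probe sets and 2 arrays) than in F266A +dox (10.35 to 11.18), while the Gapdh 3' minus 5' difference stayed between 0.141 and 0.165. For Actb the same difference went from 0.529 and 0.624 to 0.632 and 0.633 on withdrawal in F266A. Their part in the results was not tested. All 8 markers of ESCs were over the minimum, at a mean of 12.23 to 12.25 in F266A +dox and 11.85 to 11.91 in F266A -dox. Of 7 fibroblast markers only *Col1a2* passed, and the list's mean was 4.69 to 4.75 and 4.79 to 4.98 in turn, with *Col1a1*, *Col3a1*, *Lum*, *Dcn*, *Postn* and *Pdgfrb* under the minimum on every array. The primitive endoderm markers *Gata4*, *Sox17* and *Sox7* and the blood markers *Ptprc* and *Hba-a1* were also under it on every array. In bulk RNA, fewer cells of a type and less RNA per cell cannot be told apart, and this holds for every result below. The median difference of the 652 genes of chromosome 8 was 0.12 and of the 571 genes of chromosome 6 was 0.06, against -0.04 to 0.03 for the other chromosomes. In the WT withdrawal chromosome 8 stood at 0.04.

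After withdrawal of doxycycline from the F266A line, 2333 of 11940 genes differed at an adjusted p under 0.05 (19.5%). Of these, 1067 rose (8.94% of all genes) and 1266 fell (10.6%). Beside any gene described below as not overlapping, both F266A -dox arrays lay above both F266A +dox arrays for 29.6% of all genes and below them for 30.3%. Few changes were large: 35 genes rose (0.293%) and 13 fell (0.109%) by at least 2-fold. The WT withdrawal changed 3763 genes (31.5%, with 16.1% higher and 15.4% lower), 162 of them by at least 2-fold, and the median absolute difference was 0.13 in F266A and 0.15 in WT. Leaving out F266A +dox replicate 1 left 1014 calls (542 higher and 472 lower), leaving out F266A +dox replicate 2 left 1143 (399 and 744), and leaving out F266A -dox replicate 2 left 1387 (663 and 724). The count at 2-fold ran from 45 to 64 when single arrays were left out.

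**Figure D1:**
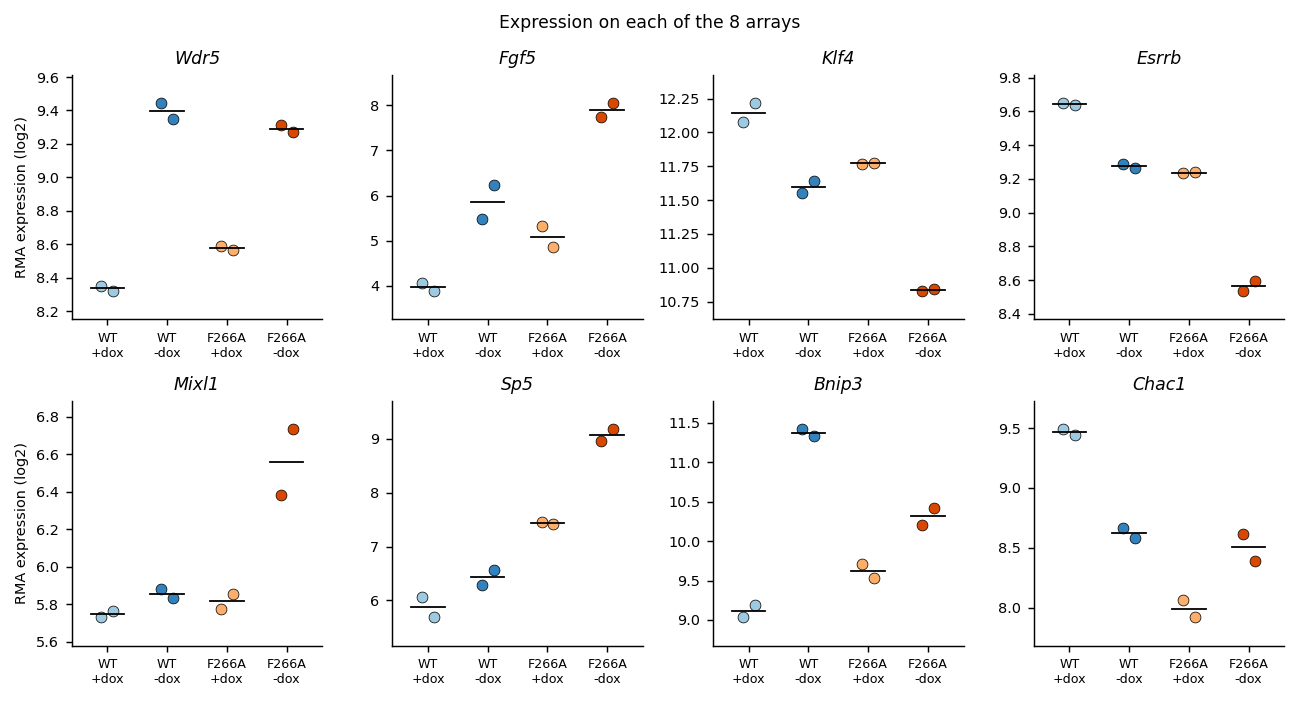
RMA expression (log2, vertical axis, a separate range for each gene) of 8 genes on each array, with the 4 groups along the horizontal axis. Points are arrays and bars are group means; *Fgf5* is highest on the 2 F266A -dox arrays at 7.74 and 8.06, and *Esrrb* is lowest there at 8.54 and 8.59.

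The largest increases were measured as follows. *Fgf5*, a fibroblast growth factor of the epiblast, measured 5.31 and 4.86 on the F266A +dox arrays but 7.74 and 8.06 after withdrawal. It rose by 2.81 ± 0.23 (7.03-fold, adjusted p = 0.000244), the largest increase of all genes tested. *Cdh2*, which encodes N-cadherin, went from 5.83 and 5.47 to 7.59 and 7.26, a rise of 1.77 ± 0.13 (adjusted p = 0.000207). For each gene the F266A -dox arrays lay wholly above the F266A +dox arrays. *Fst*, which encodes the activin antagonist follistatin, stood at 6.09 and 6.07 and then at 7.71 and 7.85, a rise of 1.70 ± 0.13. *Fgf8*, a further epiblast and streak ligand, stood at 6.10 and 6.23 and then at 7.74 and 7.88, a rise of 1.65 ± 0.21. *Sp5*, a zinc finger factor and WNT target, stood at 7.45 and 7.42 and then at 8.96 and 9.18, a rise of 1.63 ± 0.13. All 3 passed the test. Next in size were *Prickle1* of planar cell polarity (1.58), *Ms4a10* (1.48), the vertebral development gene *Vrtn* (1.45), the ectodermal factor *Zic2* (1.39), the interferon-induced GTPase *Irgm1* (1.38), *Ms4a4d* (1.36) and the IGF-binding protein *Igfbp3* (1.33). *Btla*, an immune receptor gene, rose by 1.78 but is outside the naming rule, since its mean stayed under the minimum in each group. In 15 of the 48 genes that changed by at least 2-fold, *Fgf5* among them, the mean of the lower group was under the minimum of 50. Without the minimum the rise of *Fgf5* was 1.60 and that of *Prickle1* 0.63, both still called.

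The largest decrease was that of *Lrrc31*, which measured 6.97 and 6.89 on the F266A +dox arrays but 4.82 and 4.85 after withdrawal (-2.09 ± 0.08, adjusted p = 4.72e-06). *Wscd2* went from a mean of 7.05 to one of 5.72 (-1.33 ± 0.11, adjusted p = 0.000213), again without overlap. *Lama1*, which encodes the laminin alpha chain of the embryonic basement membrane, went from 8.46 and 8.33 to 7.30 and 7.06 (-1.22 ± 0.10, adjusted p = 0.0002555). The other decreases of at least 2-fold with the higher group over the minimum were *Xaf1*, an interferon-inducible apoptosis gene (-1.26), the endoplasmic reticulum GTPase gene *Atl1* (-1.13), the axon guidance ligand *Slit2* (-1.11), the LIF-responsive surface gene *Ly6g6e* (-1.07), *Dleu7* (-1.05), *Vwf* (-1.01), *Spin4* (-1.01) and the naive factor *Tbx3* (-1.01). Without the minimum *Slit2* was -0.42 and *Tbx3* -0.55, both still called.

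**Figure D2:**
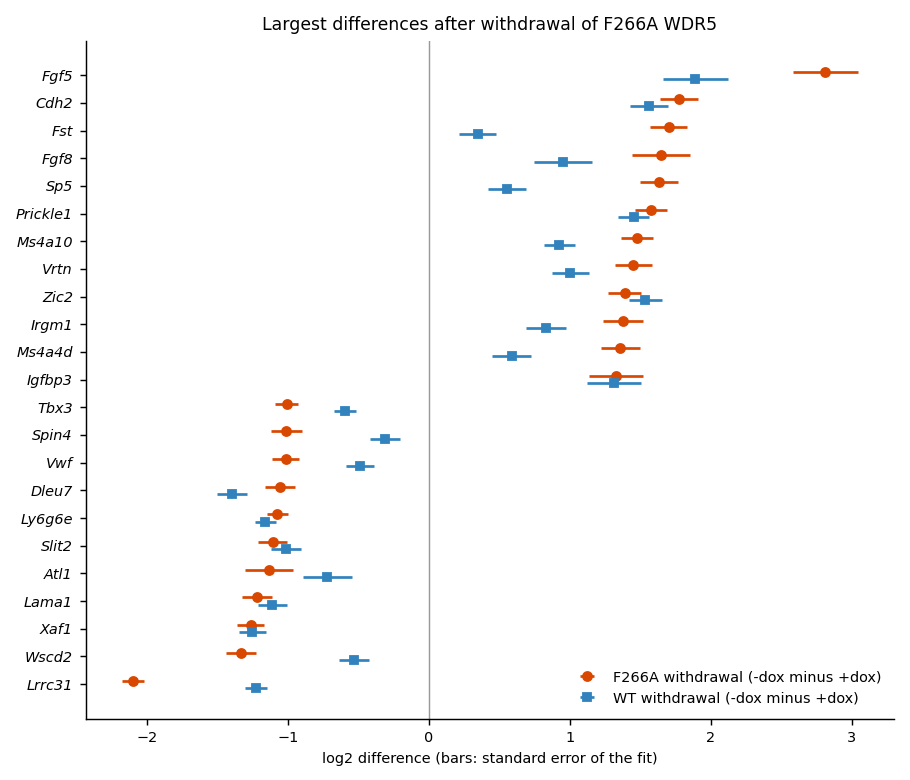
Log2 difference without minus with doxycycline (horizontal axis) of the 12 highest and 11 lowest named genes, in the F266A withdrawal (circles) and in the WT withdrawal (squares), with the standard error of the fit as bars. *Fgf5* stands at 2.81 and *Lrrc31* at -2.09 in the F266A withdrawal.

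The naive network fell in part. Of 36 measured genes of core and naive pluripotency, 15 fell and 2 rose in the F266A withdrawal, where 10.6% of all genes fell and 8.94% rose. The list's median was -0.20 against 0.00 over all genes. In the WT withdrawal 12 of the 36 fell and 10 rose (median 0.08), where 15.4% of all genes fell and 16.1% rose. In F266A *Tbx3* went from 8.93 and 8.95 to 7.93 and 7.92 (adjusted p = 0.000208). *Klf4*, a Krüppel-like factor downstream of LIF, went from 11.76 and 11.78 to 10.83 and 10.85 (-0.93 ± 0.07, adjusted p = 0.000208). *Esrrb*, an orphan nuclear receptor, went from 9.24 on each array to 8.54 and 8.59 (-0.67 ± 0.06, adjusted p = 0.000318). For these genes the duplicates lay close together and the groups did not overlap. *Nanog* went from 12.35 and 12.37 to 11.92 and 11.78 (-0.51 ± 0.07, adjusted p = 0.00242). The WT line also had less *Nanog* without doxycycline, at 12.28 and 12.39 against 12.70 on each WT +dox array. Every probe set of *Klf4* and *Esrrb* was likewise lower on both WT -dox arrays than on both WT +dox arrays. The coactivator *Tcl1* (-0.79), the MYB factor *Mybl2* (-0.71) and the ESC ligand *Fgf4* (-0.53) fell in F266A as well. The 2 genes that rose were *Dnmt3l* (0.47) and *Dppa3* (0.50). *Pou5f1*, which encodes OCT4, did not pass the test: it was 12.87 and 12.84 with doxycycline and 12.83 and 12.72 without it (-0.08 ± 0.08, adjusted p = 0.514). *Sox2* was 12.42 and 12.45 and then 12.27 and 12.06 (-0.27 ± 0.08, adjusted p = 0.0414), and its call was lost without F266A +dox replicate 1 (adjusted p = 0.127), F266A +dox replicate 2 (0.157), F266A -dox replicate 2 (0.218) and without each of the 4 WT arrays (0.0513 to 0.0628).

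In the list of LIF, STAT3 and PIM genes, 7 of 17 fell and 1 rose (median -0.18). The 7 became 3 without F266A +dox replicate 1 and 4 without F266A -dox replicate 1. Besides *Ly6g6e* and *Klf4* they held *Tfcp2l1*, a naive factor (-0.67, but -0.20 and not called without the minimum, adjusted p = 0.142), and the one that rose was the kinase gene *Pim2*, from 9.32 and 9.29 to 10.61 and 10.32 (1.16 ± 0.10, adjusted p = 0.000282).

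Of 19 measured primed epiblast genes, 12 rose and 1 fell, with a median of 0.37, where 8.94% of all genes rose and 10.6% fell. In the WT withdrawal 17 of them rose and 1 fell (median 0.85), where 16.1% of all genes rose and 15.4% fell. The 12 hold *Fgf5*, *Cdh2*, *Fgf8* and *Zic2*, and *Sall2*, a zinc finger gene that rose from 6.42 and 6.32 to 7.86 and 7.40 (1.26 ± 0.14) and was picked after its values were seen. *Lef1*, a WNT effector, went from 6.44 and 6.46 to 7.63 and 7.39 (1.06 ± 0.14, adjusted p = 0.00142), and the de novo methyltransferase *Dnmt3b* from 11.11 and 11.01 to 12.05 and 11.80 (0.86 ± 0.09, adjusted p = 0.000516). *Otx2*, an epiblast and forebrain factor also picked with its values known, did not pass: it was 8.72 and 8.56 with doxycycline and 8.82 and 8.78 without it (0.16 ± 0.08, adjusted p = 0.173). *Nes*, the neural intermediate filament gene nestin, went from 7.67 and 7.63 to 7.93 and 8.10 (0.37 ± 0.09, adjusted p = 0.017), a call lost without F266A +dox replicate 1 (0.0722), F266A +dox replicate 2 (0.088), F266A -dox replicate 2 (0.0947) and without the minimum (0.0859). Among 21 FGF ligands, receptors and ERK feedback genes, 5 rose and 1 fell (median 0.16), and the 5 became 3 without F266A +dox replicate 2. The ERK phosphatase *Dusp4* was one of them, from 7.89 and 7.67 to 8.74 and 8.90 (1.04 ± 0.11, adjusted p = 0.000552).

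Of 13 measured genes of streak and mesoderm 5 rose and none fell (median 0.12), 3 after leaving out F266A +dox replicate 1 or F266A -dox replicate 2 or with a minimum of 100. *Mixl1*, a homeobox gene of mesendoderm, measured 5.77 and 5.86 on the F266A +dox arrays but 6.38 and 6.73 after withdrawal (0.74 ± 0.10, adjusted p = 0.00221), with no overlap. *Eomes*, a T-box gene of streak and trophoblast, went from 7.69 and 7.64 to 8.18 and 8.10 (0.48 ± 0.08, adjusted p = 0.00366). *Cdx2*, a caudal factor of trophectoderm and posterior mesoderm, went from 5.33 and 5.66 to 6.22 and 6.13 (0.68 ± 0.16, adjusted p = 0.0185). The *Cdx2* call was lost without F266A +dox replicate 1 (0.14), F266A -dox replicate 1 (0.0701) and F266A -dox replicate 2 (0.055). *Bmp4*, the ligand that patterns the streak, rose by 0.49 ± 0.08 (adjusted p = 0.00454). As whole marker sets, *Mixl1* and *Eomes* averaged 6.70 to 6.80 in F266A +dox and 7.32 to 7.53 in F266A -dox. The third streak marker, *T*, was looked up under that symbol only, and no probe set was found. The 4 trophectoderm markers averaged 5.92 to 5.94 and 6.14 to 6.20 in turn, with *Elf5* and *Gata3* under the minimum. The rest went opposite ways, *Cdx2* called higher and *Tfap2c* called lower. The 3 neural progenitor markers averaged 6.53 to 6.61 and 6.50 to 6.56, with *Pax6* called higher, *Olig2* lower and *Sox1* not called. Without the minimum *Pax6* was 0.16 and not called (adjusted p = 0.201). The mesoderm factor *Hand1* (6.67 and 6.90, then 6.74 and 6.86) and the endoderm factor *Gata6* (5.38 and 5.65, then 5.53 and 5.25) did not pass. Of 16 WNT targets and TCF factors 6 rose and none fell (median 0.22), where 8.94% of all genes rose and 10.6% fell. *Sp5* and *Lef1* were among the 6.

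Cell shape and matrix genes split by kind. Of 34 measured mesenchymal and contractile genes, 22 rose and 1 fell (median 0.40), where 8.94% of all genes rose and 10.6% fell. The 22 became 11 without F266A +dox replicate 1, 7 without F266A +dox replicate 2 and 11 without F266A -dox replicate 2, while the median stayed between 0.29 and 0.49. *Vim*, the intermediate filament vimentin, went from 9.27 and 9.05 to 9.82 and 10.04 (0.77 ± 0.10, adjusted p = 0.00163). The YAP and SRF target *Ccn1* went from 7.88 and 7.71 to 8.46 and 8.51 (0.68 ± 0.09, adjusted p = 0.00129), and the hyaluronan receptor *Cd44* from 4.84 and 4.63 to 5.50 and 5.67 (0.85 ± 0.10, adjusted p = 0.000919), a mean still under the minimum. Without the minimum, when its other probe sets enter the mean, *Cd44* was 0.25 and not called (adjusted p = 0.0872). Most of these genes are also made by fibroblasts, whose defining markers are given above. The shift was shared: of the 34, 19 rose and 1 fell in the WT withdrawal (median 0.32). Of 14 basement membrane genes 6 fell and 1 rose (median -0.13), 3 fell without F266A +dox replicate 1. Beside *Lama1* they hold the nidogens, which link laminin to collagen: *Nid1* went from 8.85 and 8.76 to 8.02 and 8.04 (-0.77 ± 0.07, adjusted p = 0.000332) and *Nid2* from 10.11 and 10.03 to 9.67 and 9.60 (-0.43 ± 0.07, adjusted p = 0.00404). Of the 14 basement membrane genes 7 fell and none rose in the WT withdrawal (median -0.24).

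**Figure D3:**
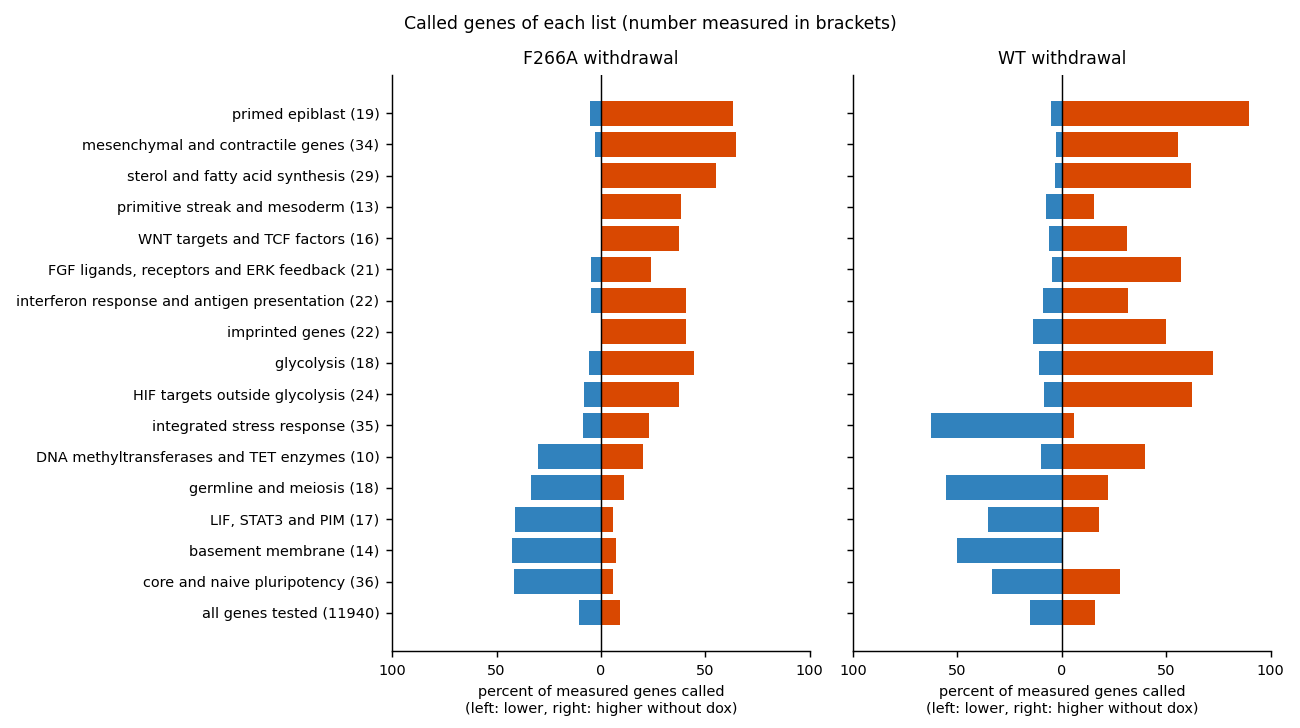
Percent of the measured genes of each list (number in brackets) that were called higher (right) or lower (left) without doxycycline, in the F266A withdrawal and in the WT withdrawal. In the F266A withdrawal 12 of 19 primed epiblast genes were higher and 15 of 36 pluripotency genes lower.

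Sterol synthesis moved one way. Of 29 measured genes of sterol and fatty acid synthesis 16 rose and none fell (median 0.27), where 8.94% of all genes rose and 10.6% fell. The 16 became 10 without F266A +dox replicate 1 and 9 without F266A +dox replicate 2. *Idi1*, an isoprenoid isomerase, went from 9.92 and 9.99 to 10.78 and 10.68 (0.77 ± 0.09, adjusted p = 0.000921). The lanosterol demethylase *Cyp51* rose by 0.51 ± 0.09 and the squalene epoxidase *Sqle* by 0.50 ± 0.08. In the WT withdrawal 18 of these genes rose and 1 fell, and the median was 0.27 there too.

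Antigen presentation and interferon-inducible genes were higher in 9 of 22 cases and lower in 1 (median 0.18). For this list and the next ones, 8.94% of all genes rose and 10.6% fell. The guanylate-binding protein gene *Gbp2* went from 8.47 and 8.40 to 9.31 and 9.74 (1.09 ± 0.13, adjusted p = 0.00116), *Gbp3* from 5.62 and 5.77 to 6.73 and 6.78 (1.06 ± 0.13, adjusted p = 0.00126), and the immunoproteasome subunit *Psmb8* from 6.99 and 7.03 to 7.87 and 7.85 (0.85 ± 0.11, adjusted p = 0.00158). *Xaf1* was the one that fell. Of 22 imprinted genes 9 rose and none fell (median 0.25), 4 without F266A +dox replicate 2. *Igf2*, the fetal growth factor, rose from 10.56 and 10.41 to 11.08 and 11.14 (0.62 ± 0.10, adjusted p = 0.00361). Without the minimum *Igf2* was 0.34 and *Psmb8* 0.50, both called. Of the 22 imprinted genes 11 rose and 3 fell in the WT withdrawal (median 0.27). Of 18 germline and meiosis genes 6 fell and 2 rose (median -0.27), with the RNA-binding protein gene *Dazl* (-0.54) and the germ cell repressor *Prdm1* (-0.60) among the 6. More of the 18 fell in the WT withdrawal, 10 against 4 that rose (median -0.58).

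The subunits of WDR5's own complexes were read next. Of 20 genes of the MLL and SET1 complexes, *Wdr5* included, 2 rose and 3 fell (median 0.04), where 8.94% of all genes rose and 10.6% fell. With a trended and robust variance prior 6 fell, and without F266A +dox replicate 1, F266A +dox replicate 2 or F266A -dox replicate 1 only 1 rose. The core subunit *Rbbp5*, which binds WDR5, went from 10.40 on each array to 10.06 and 10.03 (-0.35 ± 0.06, adjusted p = 0.00535). The methyltransferase *Kmt2c* fell by 0.49 ± 0.10 and *Hcfc2* by 0.37 ± 0.09. The 3 became 1 without F266A +dox replicate 1, where *Kmt2c* had an adjusted p of 0.0861 and *Hcfc2* of 0.107, and 1 without F266A -dox replicate 2 (0.0507 and 0.0745). *Hcfc2* also lost its call without F266A +dox replicate 2 (0.0613) and without the minimum (-0.12, adjusted p = 0.357). Among 19 measured mRNAs that bind WDR5 and that an earlier screen tied to pluripotency, 6 rose and 1 fell, and the 6 became 3 without F266A +dox replicate 1 or replicate 2. The largest of them was *Myc*, a transcription factor gene, which rose from 7.88 and 7.67 to 8.97 and 8.84 (1.13 ± 0.10, adjusted p = 0.000294).

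The F266A withdrawal was then set beside the WT withdrawal, gene by gene, by the interaction (F266A difference minus WT difference). Across the 11940 genes the 2 sets of differences correlated at 0.62, a description over genes, which are not independent. Of the 1067 genes that rose in F266A, 643 also rose in WT (60.3% of the first list and 33.4% of the second). Of the 1266 that fell, 752 also fell in WT (59.4% and 40.9%). The interaction was called for 615 genes (5.15%), 264 higher (2.21%) and 351 lower (2.94%) in F266A, and for 61 by at least 2-fold (0.511%), 33 of them lower (0.276%). Among the 615, 338 were called in the WT withdrawal and not in the F266A withdrawal, 118 in the F266A withdrawal and not in the WT one, 118 the same way in both, 39 in opposite directions and 2 in neither. Leaving out single arrays left 174 (without F266A +dox replicate 1) to 688 calls (without F266A -dox replicate 1), with 240 to 379 without each of the other 6 arrays. Of the 48 genes that changed by at least 2-fold in F266A, 13 had a called interaction.

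Of the 35 genes that rose by at least 2-fold, 30 also rose in WT and 5 were not called there. These 5 were *Btla*, *Fst*, *Gbp3*, *Ptgs2* and *Trim12c*, named for this count. On the 4 WT arrays *Btla* lay between 3.42 and 4.10 and *Gbp3* between 4.80 and 5.23, all under the minimum. *Btla*, *Gbp3* and *Ptgs2* passed the minimum only on F266A arrays, so the lack of a WT call for them says little. In WT *Fst* went from 5.54 and 6.01 to 6.07 and 6.17, so that its interaction was 1.36 ± 0.18 (adjusted p = 0.00605). The prostaglandin synthase *Ptgs2* lay between 4.34 and 4.55 on the 4 WT arrays, whereas the F266A arrays had 5.06 and 4.94 with doxycycline but 6.30 and 6.16 after its withdrawal, with an interaction of 1.21 (adjusted p = 0.00185). Only the F266A -dox arrays of *Ptgs2* exceeded the minimum. *Gbp3* (interaction 1.03, adjusted p = 0.0173) and *Btla* (1.28, adjusted p = 0.0293) lost the interaction call without single arrays, *Gbp3* without WT -dox replicate 2 (0.0567), F266A +dox replicate 1 (0.0858) and F266A -dox replicate 2 (0.0525), and *Btla* without WT +dox replicate 1 (0.0938) and replicate 2 (0.0539), WT -dox replicate 2 (0.0862) and F266A +dox replicate 1 (0.0872) and replicate 2 (0.104). *Trim12c* had no called interaction (0.78, adjusted p = 0.0966). Without the minimum its rise was 0.68 and the interaction of *Ptgs2* 0.74, both called. In WT *Sp5* went from 6.06 and 5.68 to 6.29 and 6.57, and its interaction was 1.08 ± 0.19 (adjusted p = 0.0158), no longer called without F266A +dox replicate 1 (0.071), F266A +dox replicate 2 (0.068) or F266A -dox replicate 2 (0.0502).

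*Mixl1* stayed between 5.73 and 5.88 on the 4 WT arrays, and *Eomes* between 7.67 and 7.84. The interaction was 0.63 ± 0.15 for *Mixl1* (adjusted p = 0.0436) and 0.49 ± 0.11 for *Eomes* (adjusted p = 0.0362). These calls were weak: leaving out any array but F266A -dox replicate 1 ended that of *Mixl1* (adjusted p 0.0694 to 0.154), and leaving out any but WT -dox replicate 2 ended that of *Eomes* (0.0607 to 0.116). For the streak list as a whole the interaction was called higher for 3 of 13 genes and lower for none, and for 0 or 1 without any array but F266A -dox replicate 1. For the primed epiblast list it was lower for 6 of 19, 3 without any array but F266A -dox replicate 1 or F266A +dox replicate 1, and 1 without the latter.

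**Figure D4:**
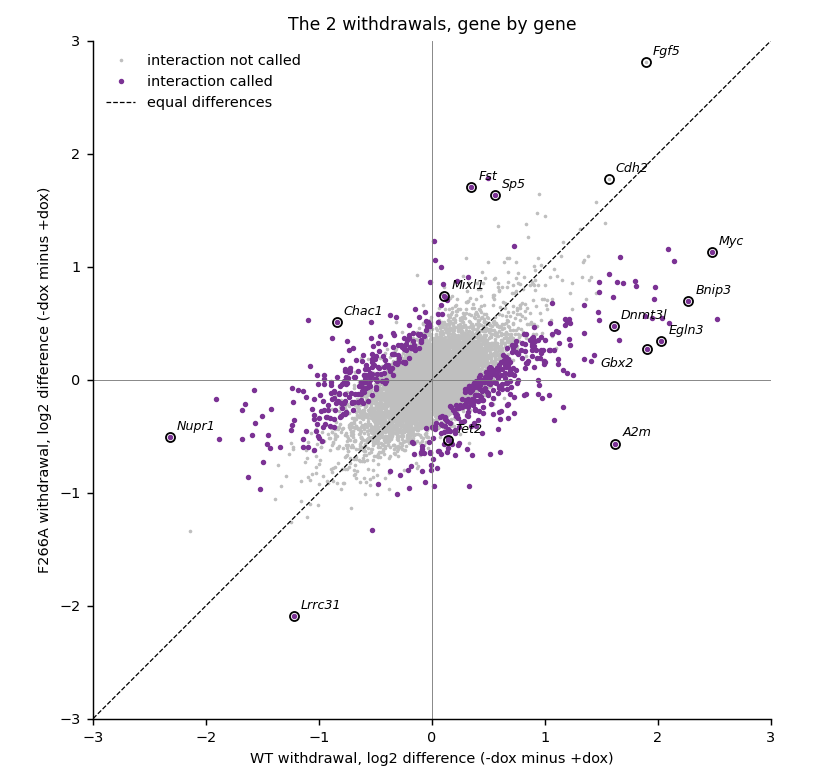
Log2 difference of each of the 11940 genes in the WT withdrawal (horizontal axis) and in the F266A withdrawal (vertical axis), with the 615 genes whose interaction was called in purple and equal differences on the dashed line. *A2m* lies at 1.62 and -0.57, and *Nupr1* at -2.32 and -0.51.

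In the naive list the interaction was lower for 9 of 36 genes and higher for none, and lower for 18 with a trended and robust variance prior. It was called lower for fewer genes without WT +dox replicate 1, WT -dox replicate 1 or either F266A +dox array. *Prdm14*, a repressor of differentiation, and the nuclear receptor *Nr0b1*, chosen with their values known, fell by 0.65 and 0.57 in F266A against -0.07 and 0.11 in WT, with interactions of -0.58 (adjusted p = 0.00973) and -0.68 (0.00924). *Gbx2*, a homeobox gene downstream of LIF, went from 6.09 and 6.14 to 7.92 and 8.12 in the WT line but from 7.31 and 7.20 to 7.63 and 7.42 in the F266A line. Its difference of 0.27 in F266A did not pass (adjusted p = 0.0734) and its interaction was -1.63 ± 0.13. Of 10 measured DNA methyltransferases and TET enzymes 2 rose and 3 fell in F266A (median -0.07), and the interaction was lower for 4, 2 of them without F266A +dox replicate 1. *Tet2*, a methylcytosine dioxygenase, went from 9.22 and 9.11 to 8.62 and 8.64 in F266A (-0.54 ± 0.07, adjusted p = 0.00163) and from 9.03 and 9.12 to 9.25 and 9.18 in WT (interaction -0.68, adjusted p = 0.00821). *Dnmt3l*, the cofactor of the de novo enzymes, rose from 10.36 and 10.27 to 10.89 and 10.69 in F266A and from 9.60 and 9.65 to 11.22 and 11.24 in WT (interaction -1.13, adjusted p = 0.00144). *Dnmt3b* had an interaction of -0.77 (adjusted p = 0.0102), lost without F266A +dox replicate 1 (0.0571), and so had *Dnmt3a* (-0.85, adjusted p = 0.0102), lost there too (0.0576). *Otx2* rose by 1.00 in WT, and its interaction was -0.84 (adjusted p = 0.00469). In WT *Myc* went from 5.84 and 6.09 to 8.47 and 8.41, and its interaction was -1.35 ± 0.14 (adjusted p = 0.00188). For *Dnmt3l*, *Dnmt3b* and *Myc* the F266A +dox arrays lay between the WT +dox and the WT -dox arrays.

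Targets of the hypoxia-inducible factor (HIF) were compared in the 2 lines. HIF is a transcription factor that prolyl hydroxylases of the EGLN family mark for destruction in the presence of oxygen. The family members *Egln1* and *Egln3* are among its own targets. Of 24 measured HIF targets outside glycolysis 9 rose and 2 fell in F266A (median 0.11), while 15 rose and 2 fell in WT (median 0.29), where 16.1% of all genes rose and 15.4% fell. The 2 lower calls in F266A became 0 without F266A +dox replicate 1 or either F266A -dox array. The interaction was lower for 9, or 5 without the expression minimum, and higher for none. *Bnip3*, a mitophagy receptor, went from 9.71 and 9.53 to 10.21 and 10.42 in F266A (0.69 ± 0.10, adjusted p = 0.00205). In WT it went from 9.03 and 9.18 to 11.42 and 11.33 (2.27 ± 0.10), and the interaction was -1.58 ± 0.14 (adjusted p = 0.000833). *Egln3* went from 6.98 and 6.97 to 7.34 and 7.30 in F266A (0.34 ± 0.07, adjusted p = 0.00907) and from 6.41 and 6.47 to 8.42 and 8.53 in WT (interaction -1.69 ± 0.10, adjusted p = 0.000105). *Ankrd37* went from 6.68 and 6.58 to 7.08 and 7.27 in F266A (0.55 ± 0.08) and from 5.77 and 5.69 to 7.73 and 7.62 in WT (interaction -1.40 ± 0.12, adjusted p = 0.000833). For all 3 genes both F266A groups lay between WT +dox and WT -dox. The *Egln3* call in F266A was lost without F266A +dox replicate 1 (0.051) or replicate 2 (0.0524). The 9 higher calls of the list became 5, 2, 5 and 4 without F266A +dox replicate 1, F266A +dox replicate 2, F266A -dox replicate 1 and F266A -dox replicate 2, and the 9 lower interactions became 5 without WT +dox replicate 1, WT -dox replicate 1, WT -dox replicate 2 or F266A +dox replicate 1.

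The core of the hypoxia response element is ACGTG, on either strand. It was found in the window from 250 bases before to 50 after the transcript start of 15 of 21 measured HIF targets with a window, against 29.2% of the 9640 tested genes with one and 19.6% of all 32851 windows. The list was made of known HIF targets, so this share is not a result of these data. The windows of *Bnip3* (GRCm38.p6, chr7:138909457-138909756, minus strand) and *Ankrd37* (chr8:45999801-46000100, minus strand) are shown 5′ to 3′ from RefSeq, as list genes that rose less in F266A and hold the core, with ACGTG or its complement in capitals. In *Bnip3* the 2 matches overlap, on opposite strands, from 108 bases before the start. In *Ankrd37* they begin 241 and 6 bases before it.
Bnip3: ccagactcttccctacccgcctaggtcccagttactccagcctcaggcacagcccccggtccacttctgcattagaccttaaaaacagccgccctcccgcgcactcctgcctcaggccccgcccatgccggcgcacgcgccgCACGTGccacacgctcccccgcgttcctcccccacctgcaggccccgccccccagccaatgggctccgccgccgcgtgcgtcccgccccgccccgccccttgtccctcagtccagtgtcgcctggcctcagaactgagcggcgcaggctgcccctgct
Ankrd37: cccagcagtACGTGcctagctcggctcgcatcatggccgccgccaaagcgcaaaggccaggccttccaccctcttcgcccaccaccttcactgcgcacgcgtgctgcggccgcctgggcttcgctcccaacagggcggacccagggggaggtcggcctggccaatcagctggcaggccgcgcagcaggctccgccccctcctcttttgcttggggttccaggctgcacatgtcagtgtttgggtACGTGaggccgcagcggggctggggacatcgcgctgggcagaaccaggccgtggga

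In glycolysis 8 of 18 genes rose and 1 fell in F266A (median 0.27), against 13 and 2 in WT, and the interaction was lower for 5 and higher for 1. Over all genes 8.94% rose and 10.6% fell in F266A, and 16.1% rose and 15.4% fell in WT. The interaction was lower for 2.94% of all genes and higher for 2.21%. The lactate transporter *Slc16a3* went from 5.86 and 5.77 to 6.41 and 6.28 in F266A (0.53 ± 0.08, adjusted p = 0.00265) and from 5.13 and 4.98 to 6.55 and 6.52 in WT (interaction -0.95 ± 0.11, adjusted p = 0.00312). The glucose transporter *Slc2a1* had differences of 0.41 and 1.34 (interaction -0.93, adjusted p = 0.0051), and its F266A call was lost without F266A +dox replicate 2 (0.0756) or F266A -dox replicate 2 (0.0623). *Hk1*, a housekeeping hexokinase, fell by 0.51 ± 0.08 in F266A and by 0.86 in WT. The 8 became 5, 1 and 3 without F266A +dox replicate 1, F266A +dox replicate 2 and F266A -dox replicate 2. The 5 became 2 without F266A +dox replicate 1 and 3 without F266A +dox replicate 2, WT +dox replicate 2, WT -dox replicate 1 or WT -dox replicate 2.

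Genes of the integrated stress response differed between the 2 lines. In this response, stalled translation initiation raises the factors ATF4 and CHOP (*Ddit3*), which switch on amino acid transport, synthesis and tRNA charging. Of 35 measured genes 8 rose and 3 fell in F266A (median 0.06), while 2 rose and 22 fell in WT (median -0.28), again against 16.1% and 15.4% of all genes. The interaction was higher for 13 and lower for none, for 8 without the minimum and for 20 with a trended and robust variance prior. *Chac1*, a glutathione-degrading enzyme, went from 8.07 and 7.92 to 8.62 and 8.39 in F266A (0.51 ± 0.09, adjusted p = 0.00534). In WT it went from 9.49 and 9.45 to 8.66 and 8.59 (interaction 1.36 ± 0.13, adjusted p = 0.00113). *Mthfd2*, a mitochondrial folate enzyme, went from 9.42 and 9.17 to 9.88 and 9.74 in F266A (0.51 ± 0.09) and from 9.90 and 9.87 to 9.35 and 9.33 in WT (interaction 1.06 ± 0.13, adjusted p = 0.00373). For both, WT +dox was the highest group or level with F266A -dox, and the 2 -dox groups lay closer together than the 2 +dox groups. *Nupr1*, a stress-induced chromatin protein, went from 8.30 and 8.26 to 7.79 and 7.75 in F266A (-0.51 ± 0.07, adjusted p = 0.00211) and from 10.91 and 10.79 to 8.58 and 8.48 in WT (interaction 1.81 ± 0.10, adjusted p = 0.000105). *Ddit3*, picked with its values known, rose by 0.37 ± 0.08 in F266A (adjusted p = 0.0162) and fell by 0.88 in WT (interaction 1.25, adjusted p = 0.00113). Its F266A call was lost without F266A +dox replicate 2 (0.0999) or F266A -dox replicate 2 (0.0903), and without the minimum its F266A difference was 0.20 (0.307) and its interaction 0.75 (0.0508), neither called. *Atf4*, picked likewise, had a difference of 0.23 that did not pass in F266A (adjusted p = 0.0728). The 8 higher calls became 5, 2 and 3 without F266A +dox replicate 1, F266A +dox replicate 2 and F266A -dox replicate 1, and the 3 lower calls became 1 without each of these. With the genes of chromosomes 6 and 8 left out, a setting added after the data were seen, the list had 4 higher calls and 1 lower. The 13 interactions became 6 without F266A +dox replicate 2 and 8 without WT +dox replicate 1, WT -dox replicate 2 or F266A +dox replicate 1.

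ATF4 binds with C/EBP partners to a composite element that can be written TGATGNAA. On either strand it stood in the window of 10 of 30 measured genes of the list that have one, against 2.66% of tested genes and 3.97% of all windows. This list was made of genes already tied to ATF4 and CHOP, so the share says nothing new about these data. The windows of *Chac1* (chr2:119350992-119351291, plus strand) and *Nupr1* (chr7:126625421-126625720, minus strand) are shown because they had the largest interactions of the list, with the matched bases in capitals. Each holds 1 match, on the opposite strand, which begins 193 bases before the start in *Chac1* and 110 in *Nupr1*.
Chac1: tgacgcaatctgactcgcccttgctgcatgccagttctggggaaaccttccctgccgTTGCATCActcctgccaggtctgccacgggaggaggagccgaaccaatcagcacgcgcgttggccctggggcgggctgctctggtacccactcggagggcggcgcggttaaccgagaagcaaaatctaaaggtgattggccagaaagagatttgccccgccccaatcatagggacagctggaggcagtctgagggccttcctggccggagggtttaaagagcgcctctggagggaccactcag
Nupr1: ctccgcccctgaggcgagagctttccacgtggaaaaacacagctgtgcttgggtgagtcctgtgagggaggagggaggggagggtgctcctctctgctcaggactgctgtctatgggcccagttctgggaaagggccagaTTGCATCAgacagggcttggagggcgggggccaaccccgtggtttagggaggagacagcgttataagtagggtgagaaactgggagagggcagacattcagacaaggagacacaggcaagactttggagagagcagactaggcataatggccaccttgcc

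**Figure D5:**
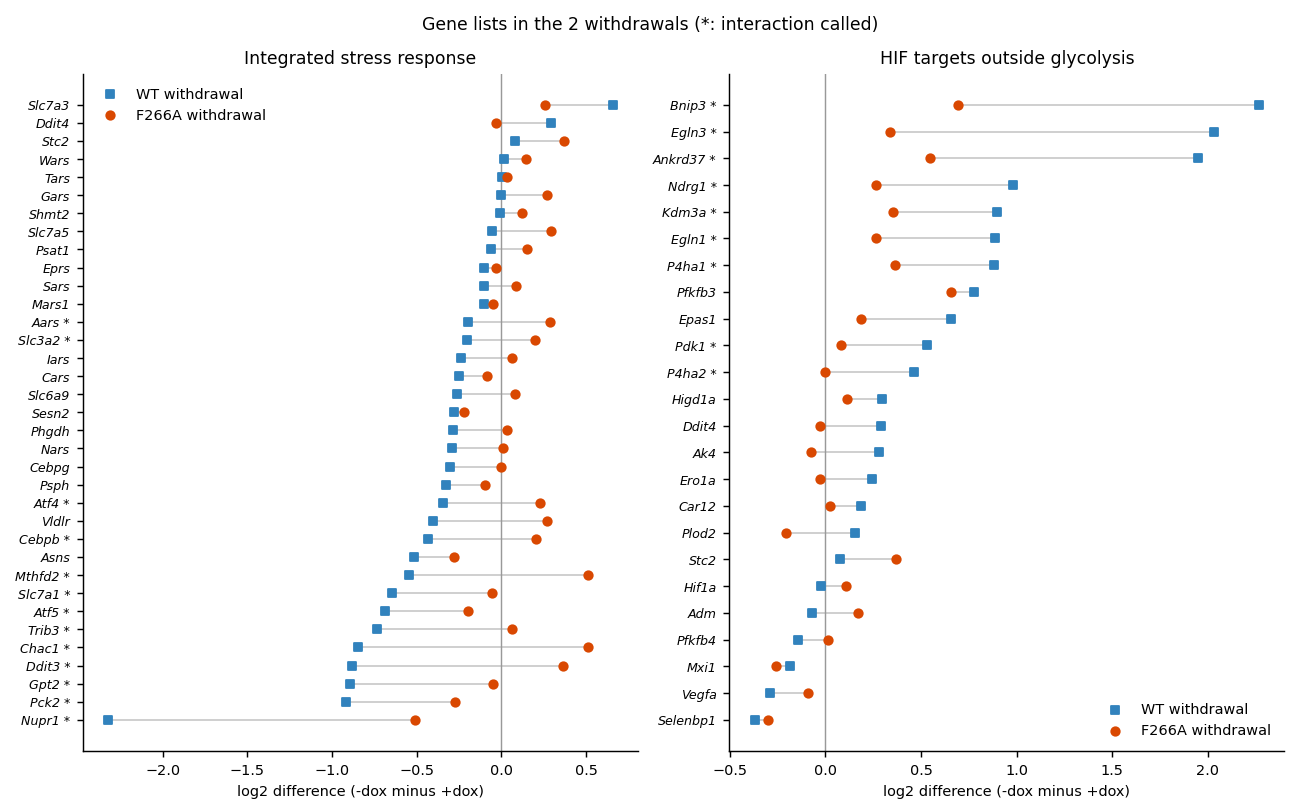
Log2 difference without minus with doxycycline (horizontal axis) of every measured gene of the integrated stress response (left) and of the HIF targets outside glycolysis (right), in the F266A withdrawal (circles) and the WT withdrawal (squares), with a star where the interaction was called. In the left panel the F266A median is 0.06 and the WT median -0.28; in the right panel they are 0.11 and 0.29.

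The window of *Sp5* (chr2:70474673-70474972, plus strand) is shown as the WNT target with the largest rise and a called interaction. The TCF core TCAAAG, on either strand, is in capitals. It occurs 2 times there, from 204 and 104 bases before the start, in 2 of 11 measured WNT genes with a window (*Sp5* and *Lef1*), in 13.7% of tested genes and in 16% of all windows. A match is a match of letters, and none of these windows was measured for binding.
Sp5: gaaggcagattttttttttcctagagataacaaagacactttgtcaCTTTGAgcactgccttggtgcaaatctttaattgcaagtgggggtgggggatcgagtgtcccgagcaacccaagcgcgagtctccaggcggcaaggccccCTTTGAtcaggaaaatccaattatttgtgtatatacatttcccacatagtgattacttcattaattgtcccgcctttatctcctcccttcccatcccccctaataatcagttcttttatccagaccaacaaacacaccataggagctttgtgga

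Among genes whose F266A groups did not overlap and whose higher F266A group was over the minimum, the called interaction was most positive in *Nupr1*, the desmosomal cadherin gene *Dsc2* (1.63), the carboxypeptidase *Cpe* (1.41), the AP-1 repressor *Jdp2* (1.36), *Fst* and *Chac1*. *Cpe* itself did not pass in F266A (-0.27 ± 0.09, adjusted p = 0.0616), and it fell by 1.68 in WT. The interaction was most negative in the protease inhibitor gene *A2m* (-2.19), the trypsin inhibitor *Spink1* (-1.98), *Egln3*, *Gbx2*, the oxidase gene *Enox1* (-1.60) and *Bnip3*. Without the expression minimum, when every probe set enters a gene's mean, *Enox1* was -0.78 and not called (adjusted p = 0.0713), and *Dsc2* (0.97), *Cpe* (0.90) and *Jdp2* (0.67) stayed called at smaller values. *A2m* went from 6.68 and 6.59 to 5.94 and 6.20 in F266A (-0.57 ± 0.10, adjusted p = 0.00493) and from a mean of 5.95 to one of 7.57 in WT. *Spink1* rose in both lines, from 8.15 and 8.10 to 8.74 and 8.58 in F266A and from 6.50 and 6.72 to 9.05 and 9.20 in WT. Of the 39 genes called in opposite directions, 15 rose in F266A and fell in WT. *Herpud1*, of endoplasmic reticulum protein degradation, was one of them, with 0.57 ± 0.09 in F266A (adjusted p = 0.00321) and -0.37 in WT (interaction 0.95, adjusted p = 0.00547). The other 24 fell in F266A and rose in WT, as *A2m* did.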

How the data were processed

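Total RNA from 8 arrays was used, 2 per group, grouped by the labels. The authors summarised and normalised the scans with RMA (justRMA in R 2.11.1, per the labels) and deposited log2 values for 45101 probe sets. Probe sets with exactly 1 symbol in the platform annotation (34945; 932 had several and 9160 none) and a value over 50 on at least 1 array (20046) were averaged per gene. The mean hides probe sets that disagree in sign, as in 30 of 915 called genes with several. Group means were fitted on all 8 arrays with limma 3.58.1 (R 4.3.3), with 2-sided tests and Benjamini-Hochberg adjustment over 11940 genes, and genes with an adjusted p under 0.05 were called. The study's own test (SAM) was not used here. In 10 simulations with 200 changed genes, 95.1% of changes of 0.5 (log2) were recovered and 5.7% of calls were false. The simulated noise was normal, independent between genes and arrays, and drawn from the spread that the same fit had estimated. These figures therefore check the code and do not give the error rate of the real calls. With 2 arrays per group the number of arrays limits the precision (median SE 0.08). Genes named were 11 fixed by name, the 12 highest and lowest changes of at least 2-fold, up to 4 members per list, and the extremes of the interaction and of opposite calls, with exceptions named. Members and lists were chosen with earlier results of these data known. Promoter windows are RefSeq's (GRCm38.p6). The alternatives were other minimums, probe set rules, scalings and variance models, a replicate block, and single arrays left out.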

Additional observations from a re-analysis of the deposited data

Results flagged for a closer look

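For the genes below the 2 withdrawals differed by the test of the difference itself (limma's interaction, adjusted p under 0.05), given as F266A minus WT on the log2 scale. Values below 0 were those of *A2m* (-2.19), *Spink1* (-1.98), *Egln3* (-1.69), *Gbx2* (-1.63), *Enox1* (-1.60), *Bnip3* (-1.58), *Ankrd37* (-1.40), *Myc* (-1.35), *Dnmt3l* (-1.13), *Ccnd2* (-1.10), *Slc16a3* (-0.95), *Slc2a1* (-0.93), *Lrrc31* (-0.87), *Otx2* (-0.84), *Nr0b1* (-0.68), *Tet2* (-0.68) and *Prdm14* (-0.58). Values above 0 were those of *Nupr1* (1.81), *Dsc2* (1.63), *Cpe* (1.41), *Jdp2* (1.36), *Fst* (1.36), *Chac1* (1.36), *Ddit3* (1.25), *Ptgs2* (1.21), *Mthfd2* (1.06) and *Herpud1* (0.95). These calls were kept with any single array left out, but without the expression minimum those of *Enox1* (-0.78, adjusted p = 0.0713) and *Ddit3* (0.75, adjusted p = 0.0508) were lost.

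Other calls were lost without at least 1 array. Those of *Pim2* (-0.93), *Dnmt3a* (-0.85) and *Dnmt3b* (-0.77) were lost only without F266A +dox replicate 1 (adjusted p = 0.0523, 0.0576 and 0.0571). *Sp5* (1.08), *Gbp3* (1.03), *Btla* (1.28), *Mixl1* (0.63) and *Eomes* (0.49) are described with their arrays in the report. *Wscd2* (-0.80) was lost without WT -dox replicate 2, either F266A +dox array or F266A -dox replicate 2 (0.0592 to 0.0891). *Cd44* (0.75) was lost without replicate 2 of any group (0.055 to 0.0725) and without the minimum (0.18, adjusted p = 0.517). *Vim* (-0.71) was lost without WT +dox replicate 1, either WT -dox array or replicate 1 of either F266A group (0.0525 to 0.11). *Atf4* (0.57) was lost without either WT +dox array, WT -dox replicate 2 or either F266A +dox array (0.0582 to 0.0852). *Nefm* (-0.83) kept its call only without replicate 1 of WT -dox or F266A -dox, *Spin4* (-0.70) only without WT +dox replicate 2 or F266A -dox replicate 1, and *Dppa3* (-0.54) only without replicate 2 of WT -dox or F266A -dox.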

How the results depend on the processing

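Without the expression minimum the F266A calls fell to 1537 (740 higher and 797 lower) and the interaction calls to 290. With a trended and robust variance prior the interaction calls rose to 1110. Leaving out single arrays gave 1014 to 2267 F266A calls, 174 to 688 interaction calls and 2359 to 3910 WT calls, and the split of F266A calls moved from 399 higher and 744 lower without F266A +dox replicate 2 to 542 and 472 without F266A +dox replicate 1. Without the genes of chromosomes 6 and 8, chosen after seeing the data, 1957 F266A calls were left (802 and 1155). With the replicate number as a block there were 2079 F266A calls (954 and 1125), 48 of at least 2-fold, 3439 WT calls and 451 interaction calls. Deviations of same-numbered arrays correlated at 0.16 (F266A) and 0.13 (WT) over 2 pairs, which does not settle whether the numbers pair the arrays. The direction turned for genes that were not called: *Cpe* was 0.023 and *Hand1* -0.0398 without the minimum, and with single arrays left out *Gata6* ran from -0.2638 to 0.0170, *Hand1* from -0.0951 to 0.1292, and *Sp110*, an interferon-inducible gene, from -0.0056 to 0.1582. The causes were not tested. Genes near the minimum are limited by signal over background.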

Other observations

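Counts for the other lists follow, where 8.94% of all genes rose and 10.6% fell. Of 35 genes of ribosome biogenesis 7 rose and none fell (3 without F266A +dox replicate 2 and 4 without F266A -dox replicate 1 or without the genes of chromosomes 6 and 8), of 41 ribosomal protein genes 3 rose and 1 fell (1 rose without either F266A +dox array), and of 51 nuclear genes of the respiratory chain 1 rose and 1 fell. Of 20 chaperone genes of the endoplasmic reticulum 7 rose and none fell, 4 without F266A +dox replicate 2 or without those chromosomes. Of 19 heat shock genes 4 rose, 1 without either F266A +dox array and 2 without F266A -dox replicate 1. The p53 list had 6 of 24 lower and 1 higher (2 lower without F266A +dox replicate 1 or F266A -dox replicate 1, 3 without F266A +dox replicate 2), and the NRF2 and glutathione list 5 of 22 lower and 1 higher (3 lower without F266A +dox replicate 1). *Nfe2l2*, which encodes NRF2, fell by 0.59, and the p53 target *Rrm2b* fell by 0.90.

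In the cell cycle, 5 of 32 mitosis genes fell and 1 rose. No mitosis gene fell without F266A +dox replicate 1, and 2 did without any other array but F266A -dox replicate 1. Of 21 G1 cyclins and inhibitors 5 rose and 5 fell, among them cyclin D2 (*Ccnd2*), which rose by 1.05. Those 5 and 5 became 2 and 2 without F266A +dox replicate 1 and 1 and 3 without F266A +dox replicate 2, with 3 higher without F266A -dox replicate 1 and 2 lower without F266A -dox replicate 2, and 3 lower without chromosomes 6 and 8. Of 30 replication genes 3 rose and 1 fell (1 rose without F266A +dox replicate 1, F266A +dox replicate 2, F266A -dox replicate 2 or chromosomes 6 and 8), and of 11 MYC family genes 2 rose and 1 fell (1 rose without either F266A +dox array or F266A -dox replicate 2, and none fell without any single F266A array).

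Among lineage lists, the early ectoderm and neural list had 6 of 18 genes higher and 3 lower, 3 and 0 without either F266A +dox array (none fell without F266A -dox replicate 2 as well). The neurofilament genes *Nefl* (0.91) and *Nefm* (0.86) had the largest rises there. Of 14 endoderm genes 2 rose, *Foxa2* (0.69) among them (1 without either WT -dox array, either F266A +dox array or F266A -dox replicate 2), and 4 fell (2 without F266A +dox replicate 1 or F266A -dox replicate 2). Of 18 trophectoderm genes 8 rose, led by the homeobox gene *Rhox5* (0.96), and 3 fell (none without either F266A +dox array, 1 without F266A -dox replicate 2 or either WT -dox array). Of 22 epithelial genes 6 rose and 1 fell, with 3 higher without either F266A +dox array, and 2 of 4 fibrillar matrix genes measured rose. Of 21 AP-1 and immediate early genes 7 rose and 2 fell (4 rose without F266A +dox replicate 1 or F266A -dox replicate 2, 3 without F266A +dox replicate 2, and 1 fell without either F266A +dox array or F266A -dox replicate 1).

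Of 16 BMP and ID genes 5 rose and 4 fell, with *Id1* at 0.92 and *Id4* at -0.91 (3 rose without F266A +dox replicate 2, and 2 fell without F266A +dox replicate 1). Of 16 NODAL and TGF-beta targets 2 rose and 3 fell (none rose without F266A +dox replicate 2 or either F266A -dox array), and of 7 LIN28, IGF2BP and HMGA genes 3 rose, with *Hmga2* at 1.07, and 1 fell. Among 29 Polycomb subunits 4 rose and 4 fell, with *Bmi1* at -0.67 (adjusted p = 0.0832, 0.0609 and 0.0684 without F266A +dox replicate 1, F266A +dox replicate 2 and F266A -dox replicate 2). Those 4 and 4 became 1 and 1 without F266A +dox replicate 1 and 0 and 1 without F266A +dox replicate 2, with 1 higher without F266A -dox replicate 1 and 1 lower without F266A -dox replicate 2. Of 18 histone demethylase genes 1 rose and 3 fell (1 fell without either F266A +dox array, F266A -dox replicate 2 or chromosomes 6 and 8), of 10 Hox genes 1 fell (none without F266A +dox replicate 1 or F266A -dox replicate 2), and neither of 2 measured genes of the two-cell-like state was called.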
